A study of Mus musculus with 6 samples.

Results

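The genes of cholesterol and fatty acid synthesis were examined in stage 0 invariant natural killer T (iNKT) cells, the earliest thymic precursors of this lineage after positive selection. The set held 33 genes chosen by symbol, and all 33 were found among the 48397 genes of the deposited count matrix. RNA-Seq was used to compare wild-type BALB/c mice with SKG mice, which carry a hypomorphic mutation of the tyrosine kinase Zap70 and so signal weakly through the T cell receptor. The question posed by the design was whether weaker signaling alters gene expression at this first stage. Mice of both groups were of the BALB/c strain and 8 to 10 weeks old, and no other allele or treatment was named. Each genotype had 3 libraries, and each library came from about 1000 cells sorted from the pooled thymi of 3 mice as PBS57-CD1d tetramer+, CD44-, CD24+, CD69+, CD4 low or negative and CD8-. The replicates were therefore pools of animals, and the p-values measure the spread between pools.

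Cholesterol is built from acetyl-CoA through mevalonate, isoprenoids and squalene, while fatty acid synthesis starts from the same acetyl-CoA. SREBP transcription factors switch on both branches when they are escorted by Scap from the endoplasmic reticulum, and the Insig proteins retain them there when sterols are plentiful. LXR nuclear receptors respond to surplus sterol and raise cholesterol efflux, and dividing T cells are known to draw on the synthetic branches for new membrane.

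SREBP acts on promoters through sterol regulatory elements, commonly beside CCAAT boxes bound by NF-Y, and the promoters of 5 members are shown here. Hmgcs1 is shown as the entry to the mevalonate route, and Acot7, Mvk, Sc5d and Abca1 are those with a RefSeq promoter at hand among the members whose libraries did not overlap between the genotypes. The sequences are the 250 bases before the start of the transcript, from RefSeq on GRCm38.p6, written 5′ to 3′ on the strand of the gene. Capitals mark matches on either strand to a sterol regulatory element (TCACCCCAC), a CCAAT box (CCAAT, or ATTGG on the other strand), an E-box (CACGTG) or an Egr motif (GCGNGGGCG).
Hmgcs1, chr13:119690101-119690350, plus strand: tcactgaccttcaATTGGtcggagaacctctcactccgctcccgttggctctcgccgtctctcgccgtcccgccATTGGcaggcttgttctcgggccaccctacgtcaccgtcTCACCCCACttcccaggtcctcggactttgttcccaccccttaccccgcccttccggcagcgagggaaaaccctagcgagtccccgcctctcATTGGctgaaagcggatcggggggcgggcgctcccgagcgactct
Acot7, chr4:152185358-152185607, plus strand: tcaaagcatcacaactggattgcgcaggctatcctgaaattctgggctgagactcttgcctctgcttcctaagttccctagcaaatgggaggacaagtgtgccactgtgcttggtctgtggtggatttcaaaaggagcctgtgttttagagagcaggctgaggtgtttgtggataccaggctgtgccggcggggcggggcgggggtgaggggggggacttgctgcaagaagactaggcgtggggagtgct
Mvk, chr5:114444019-114444268, plus strand: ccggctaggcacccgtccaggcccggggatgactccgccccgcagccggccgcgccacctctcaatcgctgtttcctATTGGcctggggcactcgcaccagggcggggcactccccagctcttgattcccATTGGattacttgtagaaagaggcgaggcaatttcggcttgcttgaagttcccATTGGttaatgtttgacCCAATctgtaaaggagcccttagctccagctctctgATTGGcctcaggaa
Sc5d, chr9:42264301-42264550, minus strand: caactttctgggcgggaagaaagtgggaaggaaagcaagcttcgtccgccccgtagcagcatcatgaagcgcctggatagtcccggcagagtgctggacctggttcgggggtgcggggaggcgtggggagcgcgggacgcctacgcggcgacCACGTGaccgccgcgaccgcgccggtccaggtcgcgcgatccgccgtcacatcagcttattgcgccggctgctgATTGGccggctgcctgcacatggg
Abca1, chr4:53159896-53160145, minus strand: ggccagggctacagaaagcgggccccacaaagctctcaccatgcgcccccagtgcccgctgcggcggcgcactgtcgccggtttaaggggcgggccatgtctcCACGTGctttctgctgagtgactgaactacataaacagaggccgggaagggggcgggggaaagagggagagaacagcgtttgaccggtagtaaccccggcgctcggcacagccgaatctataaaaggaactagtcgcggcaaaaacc

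The motifs were searched on both strands from 250 bases before to 50 bases after each start, each motif separately, so that matches of different motifs may overlap. RefSeq promoters were at hand for 25 of the 33 members, with 33 promoters in all. The sterol element was in 1 of the 33, that of Hmgcs1 at -137, and in 0.551% of 32851 mouse promoters. A CCAAT box was in 63.6% of the member promoters and in 37.4% of all promoters, and 20 of the 25 members had one. The E-box was in 21.2% of member promoters and 7.15% of all promoters. The Egr motif was in 12.1% of member promoters, those of Dhcr7, Insig1 and Scap, and in 5.55% of all promoters. The promoter of Mvk held CCAAT boxes at -173, -120, -67, -50 and -14. That of Sc5d held an E-box at -98 and a CCAAT box at -24, and that of Abca1 held an E-box at -147. The window of Acot7, whose RefSeq start lies inside the span of the gene in GENCODE, held none of the 4 motifs. These matches describe the letters only, as binding was not measured here.

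Each library held between 37176544 and 43115544 counted reads, and between 10835 and 14791 genes had at least 10 reads. All 9 markers of stage 0 iNKT and T cells (Cd3d, Cd3e, Cd3g, Lck, Zap70, Cd24a, Cd69, Egr2, Cd5) were present in every library, from 271 reads of Cd24a upward. Zap70 itself was at 498, 472 and 374 CPM (counts per 1000000 reads of the library after TMM scaling) in BALB/c pools and at 322, 338 and 408.5 CPM in SKG pools, which overlapped (edgeR, adjusted p = 0.953), and the level of its mRNA does not check a label that rests on a point mutation. Cd69, a marker of the sort, averaged 353 CPM in BALB/c and 193 CPM in SKG cells without overlap (edgeR, unadjusted p = 0.0064, adjusted p = 0.686). Egr2 averaged 1351 and 777 CPM, also without overlap (edgeR, unadjusted p = 0.0243, adjusted p = 0.834). The other markers of this list overlapped, with Cd24a at 25.1 CPM in BALB/c and 70.4 CPM in SKG cells on average. None of the 6 marker lists of other cell types separated the genotypes. The 5 myeloid markers summed to 124, 17.1 and 10.7 CPM in BALB/c pools and to 13.8, 24.6 and 286 CPM in SKG pools. Most of the sum was Apoe and Lyz2, whereas Csf1r had at most 3 reads and Itgam at most 8. Double-positive thymocyte markers summed to between 38.2 and 394 CPM, and were highest in BALB/c replicate 1. The B cell list reached at most 8.38 CPM, and the erythroid list reached 37.4 CPM in BALB/c replicate 1 and at most 0.691 elsewhere, with Alas2 at 0 throughout. Thymic epithelial markers summed to between 10.0 and 86.9 CPM, nearly all Epcam, with Krt5 and Psmb11 at 0. The adipocyte and hepatocyte list, which includes cells that make much lipid, summed to at most 27.8 CPM, nearly all Adipoq, with Apoa1 at 0. The part that such cells play in the results was not tested.

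All 33 members passed the filter on low counts, and none was called between the genotypes by edgeR when an adjusted p (false discovery rate, FDR) under 0.1 and a 1.5-fold difference were both required. The same fit called 0% of all 12312 genes tested. At an unadjusted p under 0.05 there were 3 members (9.09%), against 5.45% of all genes. Scd2 was higher in SKG cells, a direction taken by 3.07% of all genes, and Dgat1 and Acot7 were higher in BALB/c cells, a direction taken by 2.38%. The 3 libraries of one genotype all lay above those of the other for 7 members (21.2%), against 13.9% of all genes. Abca1, Scd1 and Scd2 were the 3 that lay higher in SKG cells (background 6.77%), and Mvk, Sc5d, Dgat1 and Acot7 the 4 that lay higher in BALB/c cells (background 7.12%). Leaving out BALB/c replicate 1, 2 or 3 gave 9, 9 and 10 members without overlap, beside 20.7%, 22.4% and 24.4% of all genes tested. Leaving out SKG replicate 1, 2 or 3 gave 10, 11 and 11 members, beside 23.6%, 22% and 25.8% of all genes. Without both libraries with the highest sum of myeloid markers there were 16, beside 37.7% of all genes. The median log2 fold change of the members, SKG over BALB/c, was -0.13 beside -0.02 for all genes. There were 15 members above 0 (45.5%, beside 49% of all genes) and 18 below 0. For 17 of the 33 the fitted change was smaller than its own standard error, beside 7988 of all 12312 genes. In DESeq2, the tool used in the study, Acot7 and Dgat1 passed both thresholds, beside 2.58% of genes called without shrinkage of the fold changes and 1.67% with it. For every bulk value given here, fewer cells of a type and less RNA per cell cannot be told apart.

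**Figure D1:**
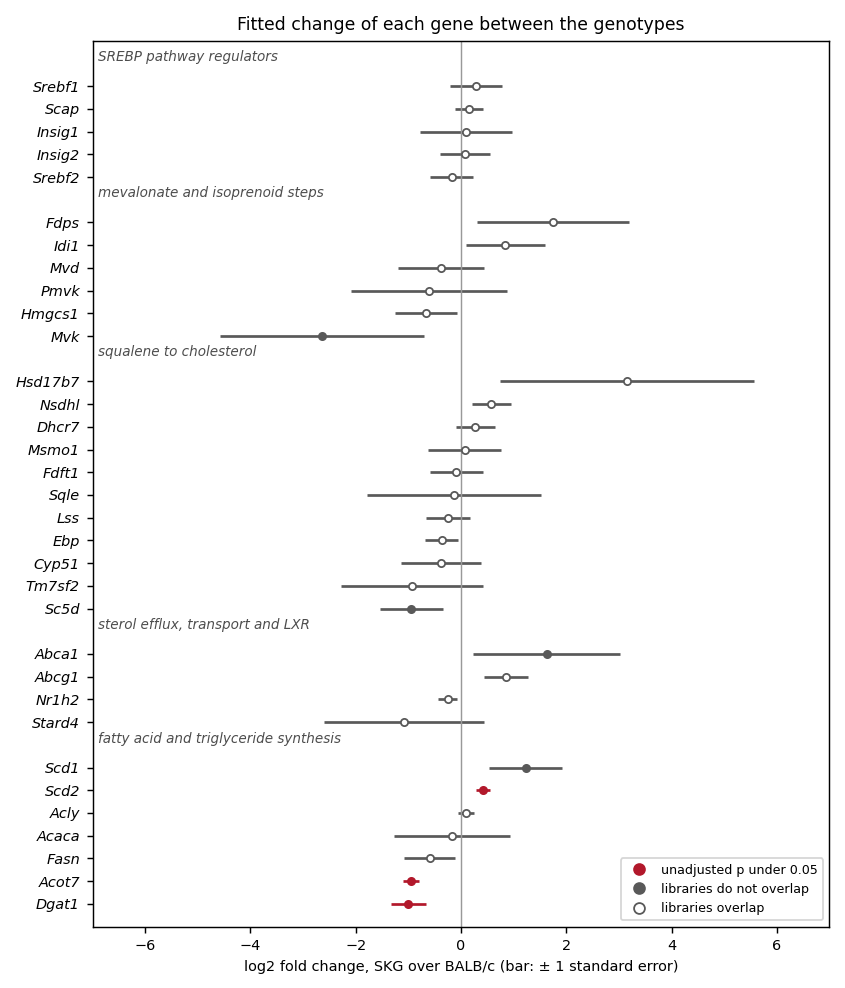
Fitted log2 fold change of each of the 33 genes, SKG over BALB/c, with bars of 1 standard error, grouped by role. Filled points mark the 7 genes whose libraries did not overlap, red those 3 of them with an unadjusted p under 0.05. Acot7, Dgat1 and Scd2 combine a bar that stays clear of 0 with a short length. So do Nr1h2, Ebp and Nsdhl, whose estimates are smaller beside their bars. Hsd17b7, Mvk, Fdps and Abca1 have the largest estimates and long bars.

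The 7 genes of fatty acid and triglyceride synthesis held all 3 members with an unadjusted p under 0.05 and 4 of the 7 without overlap. The shares within the group were 42.9% at an unadjusted p under 0.05 and 57.1% without overlap, beside 5.45% and 13.9% of all genes. The roles were chosen with earlier results of these data known, so these shares are a description and no test of the group. The group also held Acot7, Scd2 and Acly, the members that spread least within a genotype, so all genes are not a like background. Acot7 encodes a cytosolic thioesterase that releases free fatty acids from acyl-CoA, and it lies at chr4:152178134-152271855 (GRCm38, plus strand). Its level was 212, 194 and 178 CPM in BALB/c cells and 104, 96.0 and 102 CPM in SKG cells, given in replicate order as in each list of this kind. All BALB/c libraries were thus well above all SKG libraries, and the spread within each genotype was small. The means were 195 ± 17.1 and 101 ± 4.06 CPM (SD, 3 libraries each here and below). The level in BALB/c cells was 1.93-fold that in SKG cells, with a log2 fold change of -0.95 ± 0.16 (SE). Acot7 ranked 13 of 12312 genes by p (edgeR, unadjusted p = 0.000687), yet the adjusted p over all genes was 0.617. DESeq2 gave a log2 fold change of -0.93 without shrinkage and an adjusted p of 4.5e-06.

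Dgat1 encodes the acyltransferase that completes triglyceride synthesis from diacylglycerol (chr15:76502015-76511953, minus strand). It reached 60.9, 53.8 and 49.6 CPM in BALB/c libraries and 26.8, 22.0 and 33.4 CPM in SKG libraries. The genotypes did not overlap, and the lowest BALB/c library stood above the highest SKG library by more than either SD. The means of 54.8 ± 5.68 and 27.4 ± 5.72 CPM differed by a log2 fold change of -0.999 ± 0.34 (edgeR, unadjusted p = 0.0220, adjusted p = 0.834). DESeq2 gave an adjusted p of 0.0215 without shrinkage and 0.0260 with it.

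The stearoyl-CoA desaturases introduce the double bond of oleate, and their neighboring genes Scd2 (chr19:44293674-44306864, plus strand) and Scd1 (chr19:44394455-44407879, minus strand) both lay higher in SKG libraries. Scd2 was at 700, 599 and 615 CPM in BALB/c cells and at 931, 837 and 782 CPM in SKG cells. The highest BALB/c library was below the lowest SKG library, and the means were 638 ± 54.7 and 850 ± 75.3 CPM. This 1.33-fold difference was a log2 fold change of 0.41 ± 0.13 (edgeR, unadjusted p = 0.0177, adjusted p = 0.830), which is below the fold threshold of 1.5. Scd1 was at 10.4, 9.79 and 8.06 CPM in BALB/c cells and at 14.1, 13.5 and 38.6 CPM in SKG cells. SKG replicate 3 stood apart from the others, and the log2 fold change of 1.23 ± 0.69 (edgeR, adjusted p = 0.971) was 0.57 without it. That library also had the highest sums of myeloid, B cell, thymic epithelial and adipocyte or hepatocyte markers and the fewest detected genes. The part of these traits in the value was not tested. Scd1 and Scd2 are close paralogs, so reads from shared stretches may have been lost or split between them.

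Per kilobase of exon, Scd2 had the highest level of the 33 genes, with 117 CPM per kb in BALB/c cells and 156 in SKG cells, while Scd1 had 1.93 ± 0.250 and 4.51 ± 2.92. Scd2 made up 98.4, 98.2 and 98.6% of the summed Scd1 and Scd2 level in BALB/c libraries and 98.3, 98.2 and 94.8% in SKG libraries. The SKG libraries other than replicate 3 lay within the BALB/c range. The mean shares of 98.4 ± 0.175% and 97.1 ± 2.02% did not differ beyond the spread (two-sided exact permutation test, p = 0.3, adjusted over 3 shares p = 0.75, with 0.1 the smallest p that 3 against 3 allows).

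The enzymes that supply and build palmitate showed no separation. Acly, which cleaves citrate to cytosolic acetyl-CoA, was the second member by level per kilobase, at 91.8 CPM per kb over all libraries. Its means were 468 ± 29.3 and 501 ± 83.0 CPM, with a log2 fold change of 0.10 ± 0.16. Fasn, the fatty acid synthase, was at 391, 693 and 415 CPM in BALB/c cells and at 521, 337 and 134 CPM in SKG cells. The SKG values ran from within the BALB/c range to well below it, and the log2 fold change of -0.59 ± 0.49 was within the spread (edgeR, adjusted p = 0.991). Acaca, the acetyl-CoA carboxylase that commits carbon to fatty acids, ran from 12.4 to 35.2 CPM in BALB/c cells and from 1.24 to 40.1 in SKG cells, with the lowest value in SKG replicate 3. Summed over the 7 genes, the level was 1888 ± 157 CPM in BALB/c cells and 1853 ± 279 in SKG cells.

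**Figure D2:**
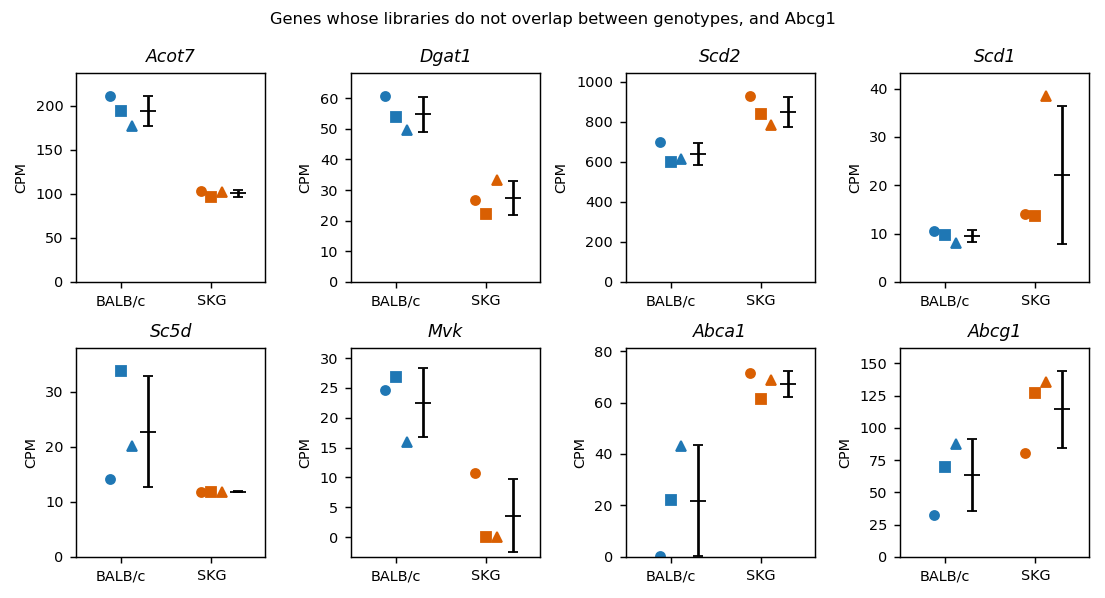
CPM in each library for the 7 genes whose libraries did not overlap and for Abcg1, with circles, squares and triangles for replicates 1, 2 and 3 and bars for the mean ± SD of 3 libraries. The points of Acot7 and Dgat1 form tight groups, while the mean of Scd1 in SKG cells rests on replicate 3, that of Abca1 in BALB/c cells includes a library near 0, and Mvk is near 0 in SKG replicates 2 and 3.

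Genes that carry cholesterol out of the cell lay higher in SKG libraries without passing the test. Abca1 encodes the transporter that hands cholesterol to lipid-poor apolipoproteins (chr4:53030787-53159895, minus strand). It was at 0.121, 22.1 and 43.2 CPM in BALB/c cells and at 71.5, 61.5 and 68.8 CPM in SKG cells. The SKG libraries lay close together and above all BALB/c libraries, which spread from near 0 upward. BALB/c replicate 1 had 5 reads of Abca1, whereas the other libraries had 818 to 2882. The log2 fold change was 1.63 ± 1.4 (edgeR, adjusted p = 0.991). It was 1.05 without BALB/c replicate 1 (edgeR, unadjusted p = 0.0410, adjusted p = 0.99996) and 2.61 without BALB/c replicate 3. BALB/c replicate 1 had the second highest sum of myeloid markers, the highest sum of double-positive thymocyte markers and the lowest Abca1. The part of these traits was not tested.

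Abcg1, which passes cholesterol to HDL particles (chr17:31057675-31117988, plus strand), was at 32.7, 69.5 and 87.3 CPM in BALB/c cells and at 80.1, 127 and 136 CPM in SKG cells. Only SKG replicate 1 fell inside the BALB/c range. The 1.81-fold difference was a log2 fold change of 0.86 ± 0.41 (edgeR, unadjusted p = 0.0782, adjusted p = 0.952). Nr1h2, which encodes LXRβ, the receptor that activates both transporter genes, was at 256 ± 33.8 CPM in BALB/c and 214 ± 33 in SKG cells, a log2 fold change of -0.26 ± 0.18. Stard4, a cytosolic sterol carrier, ran from 8.10 to 22.2 CPM in BALB/c cells and from 0.0553 to 12.8 in SKG cells. Within this group of 4 genes, 2 lay above 0 and 2 below, and the summed level was 354 ± 19.4 CPM in BALB/c and 402 ± 46.9 CPM in SKG cells.

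None of the 5 regulators of the SREBP pathway differed by more than its standard error. Srebf1, the source of the SREBP-1 proteins that favor fatty acid genes, was at 115, 298 and 170 CPM in BALB/c cells and at 328, 272 and 108 CPM in SKG cells. Srebf2, the source of SREBP-2, which favors cholesterol genes, was at 232, 145 and 143 CPM in BALB/c cells and at 199, 186 and 73.4 CPM in SKG cells. For both genes SKG replicate 3 was the lowest library and the genotypes overlapped, with log2 fold changes of 0.28 ± 0.50 and -0.18 ± 0.41 (edgeR, adjusted p = 0.991 for both). Srebf1 and Rai1 have overlapping exons on opposite strands, so that their reads cannot be told apart without strand. Scap, Hmgcs1, Idi1, Fdft1, Lss and Cyp51 likewise overlap a gene on the other strand, and Fdps, Tm7sf2 and Scd2 overlap one on the same strand, which leaves their counts uncertain to that extent.

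The genotypes differed in the retention proteins by less than the SD of either group. Insig1, itself an SREBP target, was at 32.7, 8.49 and 17.1 CPM in BALB/c cells and at 15.02, 6.20 and 41.3 CPM in SKG cells. Its highest values were in BALB/c replicate 1 and SKG replicate 3. These libraries had the highest sums of myeloid, double-positive thymocyte and B cell markers and the fewest genes with at least 10 reads. Those traits cannot be told apart here, and their part was not tested. Insig2 was at 15.9, 35.1 and 32.4 CPM in BALB/c cells and at 26.4, 32.9 and 28.3 CPM in SKG cells. Only BALB/c replicate 1 stood low. The log2 fold changes were 0.10 ± 0.88 for Insig1 and 0.07 ± 0.47 for Insig2, and 0.16 ± 0.27 for Scap, which lay between 60.2 and 109.5 CPM.

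Within a library, Insig1 made up 69.7, 21.4 and 37.3% of the summed Insig1 and Insig2 level per kilobase in BALB/c cells and 39.0, 17.5 and 62.1% in SKG cells. Srebf2 made up 61.3, 27.6 and 39.7% of the summed Srebf1 and Srebf2 level in BALB/c cells and 32.3, 34.8 and 34.8% in SKG cells. Neither balance between paralogs differed beyond the spread. The differences of the means, SKG minus BALB/c, were -3.28 percentage points for Insig1 and -8.89 for Srebf2 (two-sided exact permutation tests, p = 0.8 and p = 0.5, adjusted p = 0.8 and p = 0.75). Both differences changed sign when BALB/c replicate 1 was left out, to 10.2 and 0.331.

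**Figure D3:**
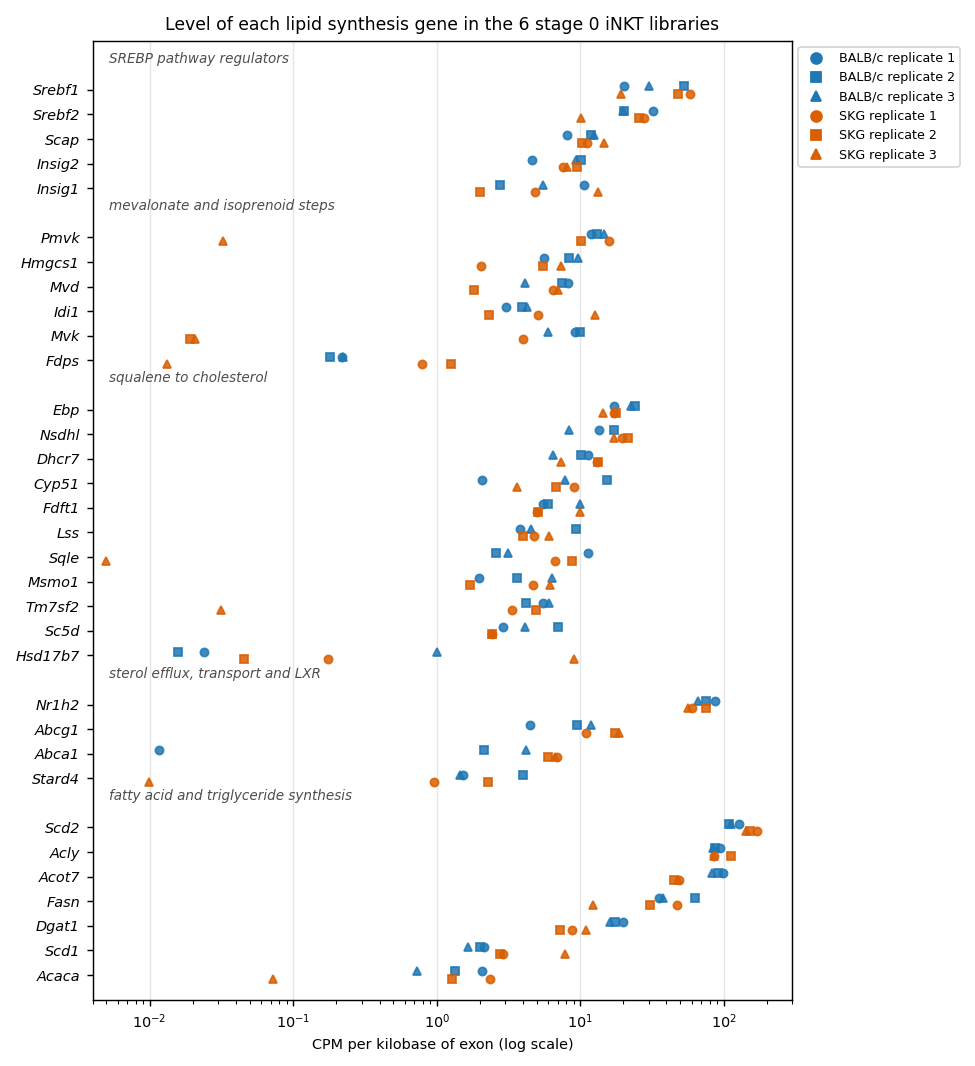
Level of each of the 33 genes in CPM per kilobase of exon on a log axis, by role, with blue for the 3 BALB/c and orange for the 3 SKG libraries and a marker shape for each replicate. Scd2, Acly, Nr1h2 and Acot7 have the highest mean levels, and isolated points far to the left are libraries with only a few reads of a gene that was well covered elsewhere.

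Along the mevalonate route, 4 of 6 genes had log2 fold changes below 0 and 2 above, and none passed the test. Hmgcs1, the synthase that makes HMG-CoA, was at 25.5, 38.5 and 44.4 CPM in BALB/c cells and at 9.43, 25.4 and 33.6 CPM in SKG cells. The SKG libraries were lower on average but overlapped, with a log2 fold change of -0.66 ± 0.58 (edgeR, adjusted p = 0.991). Mvk, mevalonate kinase (chr5:114444269-114460591, plus strand), was at 24.7, 26.9 and 16.0 CPM in BALB/c cells and at 10.7, 0.0515 and 0.0553 CPM in SKG cells. All SKG libraries were below all BALB/c libraries, and the values of SKG replicates 2 and 3 stood for 2 reads each, whereas the other libraries had 430 to 1017. The fitted log2 fold change was -2.65 ± 1.94 (edgeR, adjusted p = 0.990), and with values this near 0 its size rested on SKG replicate 1, without which it was -8.64.

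Idi1, the isomerase that makes dimethylallyl diphosphate, was at 10.7, 13.7 and 14.9 CPM in BALB/c cells and at 18.0, 8.13 and 44.3 CPM in SKG cells. The SKG libraries lay on both sides of the BALB/c range. Its log2 fold change of 0.84 ± 0.75 (edgeR, adjusted p = 0.991) was 0.00 without SKG replicate 3. Pmvk and Mvd, the enzymes on either side of mevalonate diphosphate, had log2 fold changes of -0.61 ± 1.48 and -0.38 ± 0.81. Fdps, the farnesyl diphosphate synthase, had the lowest counted level per kilobase of all members (0.449 CPM per kb) and between 2 and 207 reads. Its exons overlap those of Gm43738 on the same strand, which had at most 5 reads in any library. Reads from the shared stretches may have gone uncounted for both genes, so the level of Fdps may be understated, which was not tested. Summed over the 6 genes, the level was 97.4, 116 and 109 CPM in BALB/c cells and 80.5, 59.7 and 91.0 CPM in SKG cells. The sums did not overlap, but without Mvk they did, from 72.8 to 92.9 CPM in BALB/c and from 59.6 to 90.9 CPM in SKG cells.

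The 11 genes from squalene to cholesterol gave 4 log2 fold changes above 0 and 7 below, with a median of -0.13. Sc5d, which introduces a ring double bond late in the route (chr9:42251595-42264256, minus strand), was at 14.2, 33.9 and 20.1 CPM in BALB/c cells and at 11.7, 11.9 and 11.9 CPM in SKG cells. The SKG libraries were almost equal to each other and lay just under the lowest BALB/c library. The log2 fold change was -0.94 ± 0.59 (edgeR, adjusted p = 0.980). Sqle, the squalene epoxidase at a control point of the route, was at 62.8, 14.3 and 17.4 CPM in BALB/c cells and at 37.3, 48.9 and 0.0277 CPM in SKG cells. The last value stood for 1 read, the lowest count of any member, and the log2 fold change of -0.13 ± 1.66 ran from -0.74 to 0.87 as single libraries were left out.

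The other 9 genes of this stretch overlapped between the genotypes. Nsdhl, a C4-demethylation enzyme, had 37.3 ± 12.8 CPM in BALB/c and 55.5 ± 6.55 CPM in SKG cells, a log2 fold change of 0.57 ± 0.37 (edgeR, adjusted p = 0.982). Ebp, the sterol isomerase, had 49.1 ± 8.23 and 38.2 ± 4.27 CPM, a log2 fold change of -0.36 ± 0.31. Hsd17b7, a ketosteroid reductase of the route, had the highest fitted log2 fold change of the set at 3.15 ± 2.41 (edgeR, adjusted p = 0.991). It rested on SKG replicate 3, with 1671 reads against 3 to 231 elsewhere, and was -1.64 without that library. Fdft1, Lss, Cyp51, Tm7sf2, Msmo1 and Dhcr7 had log2 fold changes between -0.93 (Tm7sf2) and 0.27 (Dhcr7), each smaller than its standard error. Summed over the 11 genes, the level was 376 ± 62.5 CPM in BALB/c and 364 ± 17.2 CPM in SKG cells.

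Single libraries nearly without reads of a gene were part of the spread. Of the 198 values (33 genes in 6 libraries), 10 were at most 5 reads, and 6 of those were in SKG replicate 3, namely Mvk, Pmvk, Fdps, Sqle, Tm7sf2 and Stard4. The others were Mvk in SKG replicate 2, Hsd17b7 and Abca1 in BALB/c replicate 1, and Hsd17b7 in BALB/c replicate 2. No member was at 0 reads in any library. A gene with at most 5 reads in a library and at least 100 in another of the same genotype was found for 8 of 33 members (24.2%) and for 17.8% of all genes tested. SKG replicate 3 also had the most such low values over all tested genes (14.8% at most 5 reads) and the fewest genes with at least 10 reads, against 1.05% in BALB/c replicate 3, the lowest share. The median SD within a genotype on the log2(CPM + 1) scale was 0.70 for the members and 0.55 for all genes. It was smallest for Acot7 (0.098) and Scd2 (0.124), followed by Acly (0.174) and Nr1h2 (0.203), and largest for Sqle (2.35). Acot7, Scd2, Acly and Nr1h2 also had the 4 highest levels per kilobase.

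**Figure D4:**
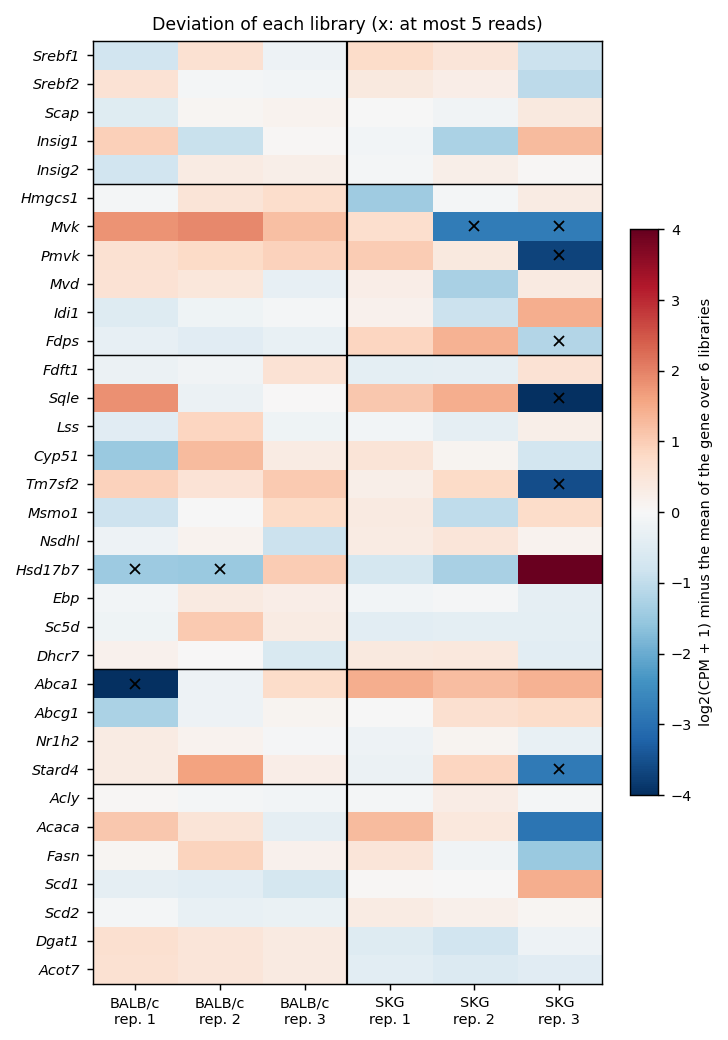
Deviation of each library, on the log2(CPM + 1) scale, from the mean of the gene over the 6 libraries, with colors limited to between -4 and 4, red above the mean and blue below, and crosses at values of at most 5 reads. The 6 crosses in the SKG replicate 3 column contrast with none in BALB/c replicate 3 and SKG replicate 1, and Acot7 and Dgat1 keep one color in each genotype.

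A wider list of 42 lipid genes, which takes in sterol storage, elongases, desaturases, acyl-CoA synthetases and fatty acid oxidation, was counted beside the members. Of the 42, 38 were tested, 0 were called, and 1 (2.63%, beside 5.45% of all genes) had an unadjusted p under 0.05. That gene was Cpt1a, the gate for entry of fatty acids into mitochondria, at 270, 389 and 252 CPM in BALB/c cells and at 383, 498 and 452 CPM in SKG cells. SKG replicate 1 fell within the BALB/c range, and the log2 fold change was 0.55 ± 0.21 (edgeR, unadjusted p = 0.0371, adjusted p = 0.871). The libraries did not overlap for 5 of the 38 (13.2%), a share near the 13.9% of all genes. The 5 were Acsl3, which lay higher in SKG cells, and Mbtps2, Soat1, Acsl4 and Acadl, which lay higher in BALB/c cells, and they are named only to account for the count, after their values were seen. The fitted changes of the 38 had a median of 0.12, with 20 genes above 0 and 18 below. Over the 33 members together, the summed level was 3221 ± 284 CPM in BALB/c cells and 3225 ± 434 CPM in SKG cells.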

How the data were processed

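RNA was sequenced from stage 0 iNKT cells of 3 BALB/c and 3 SKG pools as 50-nt single-end reads. The library kit differs between the labels (SMART-Seq v4) and the methods of the study (SEQR), and both describe PCR preamplification without molecular identifiers, so counts include PCR copies. The whole-number counts per gene deposited by the authors come from HISAT2 2.1.0 on GRCm38 and featureCounts (Subread 1.4.4) on Ensembl exons, ignoring strand and keeping reads of mapping quality 10 or more. Normalization and filters on genes were not applied. A table with the authors' own DESeq2 comparison (fold changes, p-values) was not used.

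Counts were fitted in R 4.3.3 with edgeR 4.0.16 (filterByExpr by genotype, TMM, quasi-likelihood F test, Benjamini-Hochberg over 12312 genes), and a call required both an FDR under 0.1 and a 1.5-fold difference. The SE of a log2 fold change is its size divided by the square root of F. Depth was 37176544 to 43115544 reads per library. Exon lengths and positions were taken from GENCODE M21 on GRCm38, and CPM uses TMM factors. Scripts were tested on simulated data. Alternatives were DESeq2 1.42.0 with and without shrinkage, limma-voom (limma 3.58.1), other normalizations and filters, each library left out, either replicate number as a block, the number of detected genes as a covariate, an FDR of 0.05 and no fold threshold. The limit of 5 reads for a nearly empty library, and the alternative without BALB/c replicate 1 and SKG replicate 3, were chosen after seeing the data.

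The members, roles and wider list were chosen with earlier results of these data known. Values per library were given for members with an unadjusted p under 0.05, for those whose libraries did not overlap and for a list of 12 members, and of the wider list for genes with an unadjusted p under 0.05. The labels name separate pools but not litters or days.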

Additional observations from a re-analysis of the deposited data

How the results depend on the processing

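No alternative called a member except DESeq2. DESeq2 called 370 genes without shrinkage and 231 with it, and 2 members in both (Acot7 and Dgat1), with 5 members at an unadjusted p under 0.05 in both (Acot7, Dgat1, Scd2, Scd1 and Sc5d), against 0 genes, 0 members and 3 members in edgeR. At an unadjusted p under 0.05, edgeR gave 671 genes. The share of all genes at that p was not counted in DESeq2, so the 5 members there have no background. Dropping the low-count filter gave 2 called genes in edgeR and a stricter filter 1. The median log2 fold change of all genes was 0.12 in DESeq2 without shrinkage, which was run without the low-count filter. In edgeR it was -0.02 with that filter and 0.09 without it. Members without overlap numbered 9 to 11 of 33 as single libraries were left out (11 without SKG replicate 2 or 3), beside 20.7% to 25.8% of all genes, and 16 without both libraries with the highest myeloid markers, a choice made after seeing the data, beside 37.7% of all genes. The median log2 fold change of the members stayed below 0 in every setting run, from -0.29 without BALB/c replicate 3 to -0.04 without SKG replicate 2.

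Leaving out single libraries moved the difference in the Insig1 share from -14.6 to 10.2 percentage points (above 0 without BALB/c replicate 1 or SKG replicate 2), that of Srebf2 from -16.5 to 0.331, and that of Scd2 from -1.87 to -0.0956. It also turned the sign of log2 fold changes that ran from -0.029 to 0.72 for Srebf1, -0.42 to 0.17 for Srebf2, -0.013 to 0.28 for Scap, -0.86 to 0.70 for Insig1, -0.20 to 0.26 for Insig2, -0.67 to 0.032 for Mvd, -0.48 to 0.23 for Fdft1, -0.74 to 0.87 for Sqle, -0.49 to 0.24 for Lss, -0.83 to 0.37 for Cyp51, -0.31 to 0.57 for Msmo1, -1.64 to 7.23 for Hsd17b7, -0.039 to 0.18 for Acly and -1.02 to 0.40 for Acaca. The log2 fold change kept its sign for every other member, among them Acot7 (-1.01 to -0.88), Dgat1 (-1.15 to -0.85) and Scd2 (0.34 to 0.49). Acot7 had an unadjusted p under 0.05 whichever library was left out. Dgat1 had none under 0.05 without BALB/c replicate 1, SKG replicate 1 or SKG replicate 2 (0.0544 to 0.0633), nor Scd2 without BALB/c replicate 2, BALB/c replicate 3 or SKG replicate 1 (0.0542 to 0.0660, edgeR). In limma-voom the sign turned for Insig1 (-0.19), Cyp51 (0.0013) and Msmo1 (-0.0072). Mvk joined Acot7, Dgat1 and Scd2 at an unadjusted p under 0.05 there (log2 fold change -5.86, limma-voom, unadjusted p = 0.0140, adjusted p = 0.591). It also did so with the number of detected genes as a covariate (-6.65, edgeR, unadjusted p = 0.0413, adjusted p = 0.888). The share of all genes at that p was not counted in these fits. The causes were not tested.

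The labels do not say whether libraries of the same number shared a day or batch. The correlations of residuals were -0.0553, 0.00991 and -0.0657 for the title numbers and -0.0261 and -0.0192 for the library numbers. Libraries of different numbers were not set beside them, so these values cannot decide whether a batch was shared. With the replicate block by title number, 0 members were called and 3 had an unadjusted p under 0.05, but these were Acot7, Scd2 and Abcg1 in place of Dgat1, and Insig1 turned to -0.12. The unadjusted p in this edgeR fit was 0.0628 for Dgat1 and 0.0184 for Abcg1, and the adjusted p was 0.957 for both. With the replicate block by library number 0 were called and the 3 were Acot7, Mvk and Abcg1 in place of Scd2 and Dgat1. The unadjusted p in this edgeR fit was 0.0122 for Mvk, 0.0391 for Abcg1, 0.256 for Scd2 and 0.211 for Dgat1. In that fit BALB/c replicate 3 and SKG replicate 1 had no partner of their number, and the sign turned for Srebf1 (-0.11), Insig1 (-0.058), Fdps (-0.46), Fdft1 (0.32) and Dhcr7 (-0.12). Both block fits called 0 genes, and the share of all genes at an unadjusted p under 0.05 was not counted for them. Counting error was not measured, as the reads carry no molecular identifiers, values of a few reads carry little precision, and 3 libraries per genotype limited every comparison.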
